A study of Mus musculus with 6 samples.

Results

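The Hox genes of the 4 mouse clusters, Hoxa, Hoxb, Hoxc and Hoxd, were followed in partially reprogrammed fibroblasts. The members were all genes whose symbol reads Hox, a cluster letter and a number, which gave 39 of the 20325 genes listed (11 in Hoxa, 10 in Hoxb, 9 in Hoxc and 9 in Hoxd). RNA was sequenced from 2 pre-iPSC lines, pre3 and pre2-2, that is lines stalled on the way from fibroblast to pluripotent cell. Both derive from embryonic fibroblasts of OG2 transgenic mice (a Pou5f1-GFP reporter strain) on a mixed 129SVJ, C57B6 and CBA background, at passage 10. In each line 1 library was made from cells given an siRNA against Tet1 (siTet1), 1 from cells given a control siRNA and 1 from untransfected cells, and all 6 cultures received vitamin C at 50 µg/ml in stem cell medium with LIF. The sample labels name the fibroblasts of origin and only the series description speaks of pre-iPSCs, and separate cultures are not mentioned for the 3 libraries of a line. Each line is a single line, so a difference between pre3 and pre2-2 is a difference between these lines, and p-values measure the spread between these libraries, which may be technical.

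Hox genes encode homeodomain transcription factors that give cells along the head-to-tail and limb axes their positional identity. Within a cluster they lie in the order of their paralog numbers, low numbers acting towards the head and high numbers towards the tail and the limb tips. Fibroblasts are known to keep the Hox combination of the body site they came from, Polycomb proteins hold the clusters silent in pluripotent cells, and retinoic acid is known to switch on the low-numbered end. Members were grouped here as anterior (paralogs 1 to 3), central (4 to 8) and posterior (9 to 13).

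Of the 4 clusters Hoxd differed most between the lines in summed level, so the start regions of its called members Hoxd9, Hoxd8 and Hoxd4 are shown first, with that of Hoxa9, a paralog of Hoxd9 that differed between the lines in the opposite direction. Each run holds the 250 bases before the RefSeq start on GRCm38.p6, a later build than the mm9 of the deposited values. Capitals mark matches on either strand to 5 short motifs. The TATA box was searched as TATAAA and the CCAAT box by those letters. The GC box was searched as GGGCGG. The nuclear receptor element was searched as AGGTCA. The Pbx-Hox motif was searched as TGATNNAT.
Hoxd9, chr2:74697513-74697762, plus strand: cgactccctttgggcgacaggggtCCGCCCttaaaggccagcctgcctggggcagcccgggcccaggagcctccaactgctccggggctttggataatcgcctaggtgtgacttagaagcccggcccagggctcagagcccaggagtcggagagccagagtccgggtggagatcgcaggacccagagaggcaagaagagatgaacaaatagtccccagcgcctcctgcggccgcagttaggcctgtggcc
Hoxd8, chr2:74704365-74704614, plus strand: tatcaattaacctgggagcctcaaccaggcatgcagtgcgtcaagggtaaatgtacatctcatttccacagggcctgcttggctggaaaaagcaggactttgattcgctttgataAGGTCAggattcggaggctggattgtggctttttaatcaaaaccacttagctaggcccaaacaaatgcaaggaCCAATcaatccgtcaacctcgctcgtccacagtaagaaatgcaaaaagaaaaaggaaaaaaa
Hoxd4, chr2:74721728-74721977, plus strand: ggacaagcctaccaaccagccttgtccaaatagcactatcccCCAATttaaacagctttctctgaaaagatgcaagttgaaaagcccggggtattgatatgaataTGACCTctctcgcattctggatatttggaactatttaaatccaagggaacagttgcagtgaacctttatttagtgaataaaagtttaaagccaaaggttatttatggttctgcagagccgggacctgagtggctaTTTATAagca
Hoxa9, chr6:52227371-52227620, minus strand: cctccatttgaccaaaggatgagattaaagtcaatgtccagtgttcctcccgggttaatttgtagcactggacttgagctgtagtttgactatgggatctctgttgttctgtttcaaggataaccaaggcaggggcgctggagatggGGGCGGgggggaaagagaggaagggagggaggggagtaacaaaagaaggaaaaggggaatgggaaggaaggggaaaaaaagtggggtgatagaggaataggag

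None of the 5 motifs was in all 3 Hoxd stretches. Hoxd8 and Hoxd4 each held the CCAAT box and the nuclear receptor element, Hoxd4 also held the TATA box, and Hoxd9 held the GC box alone, as did Hoxa9. Over 32851 start regions of the same length in the RefSeq table, 33.8% held the CCAAT box, 32.7% the GC box, 14.0% the nuclear receptor element, 12.4% the TATA box and 7.7% the Pbx-Hox motif on either strand. The table held 24 start regions of 22 Hox genes, of which 14 held the CCAAT box, 10 the GC box, 6 the nuclear receptor element, 4 the TATA box and 4 the Pbx-Hox motif. CpG dinucleotides numbered 13 in the Hoxd9 stretch, 6 in Hoxd8, 3 in Hoxd4 and 3 in Hoxa9, with a median of 12.5 over the Hox start regions and 6 over all. These counts describe the reference sequence and say nothing of which factor is bound.

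Library totals ran from 1868640 to 2582803 expected counts, and 28 to 34 of the 39 Hox genes had a count in a library. The Hox genes were low: together they took 365.1 to 487.8 expected counts per library. A count of 0 allows up to 3 counts, which is 1.16 to 1.61 CPM (counts scaled to the library total) depending on the library. Levels are given as TPM, which are scaled to the total of each library, corrected for transcript length and can be compared between genes. Intervals from counts cover counting error only. Tet1, the target of the siRNA, was at 158, 249 and 204 CPM in the siTet1, control siRNA and untransfected libraries of pre3 and at 153, 245 and 249 CPM in those of pre2-2. It fell with siTet1 against control siRNA by 0.67 on the log2 scale (SE 0.13, edgeR quasi-likelihood test, adjusted p = 0.00432).

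In both lines Hox genes of all 4 clusters were expressed, mostly central ones, and the genes of paralog groups 11 to 13 did not reach 4 TPM in any library. At 1 TPM or more in each of its 3 libraries, pre3 expressed 21 of the 39 Hox genes, against a share of 55.5% over all listed genes. By the same measure pre2-2 expressed 26, against 57.3% over all listed genes. As shares these are 53.8% of Hox genes in pre3 and 66.7% in pre2-2. All 21 genes expressed in pre3 were among the 26 of pre2-2. The 5 further genes of pre2-2 were Hoxb6, Hoxb8, Hoxb13, Hoxc9 and Hoxc10, all central or posterior. At a threshold of 10 expected counts in each library in place of 1 TPM, the numbers were 12 in pre3 and 14 in pre2-2. This threshold does not allow for depth, which reached 1992130 expected counts in pre3 and 2582803 in pre2-2. Its share over all genes is not given here, so these numbers do not compare the lines.

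**Figure D1:**
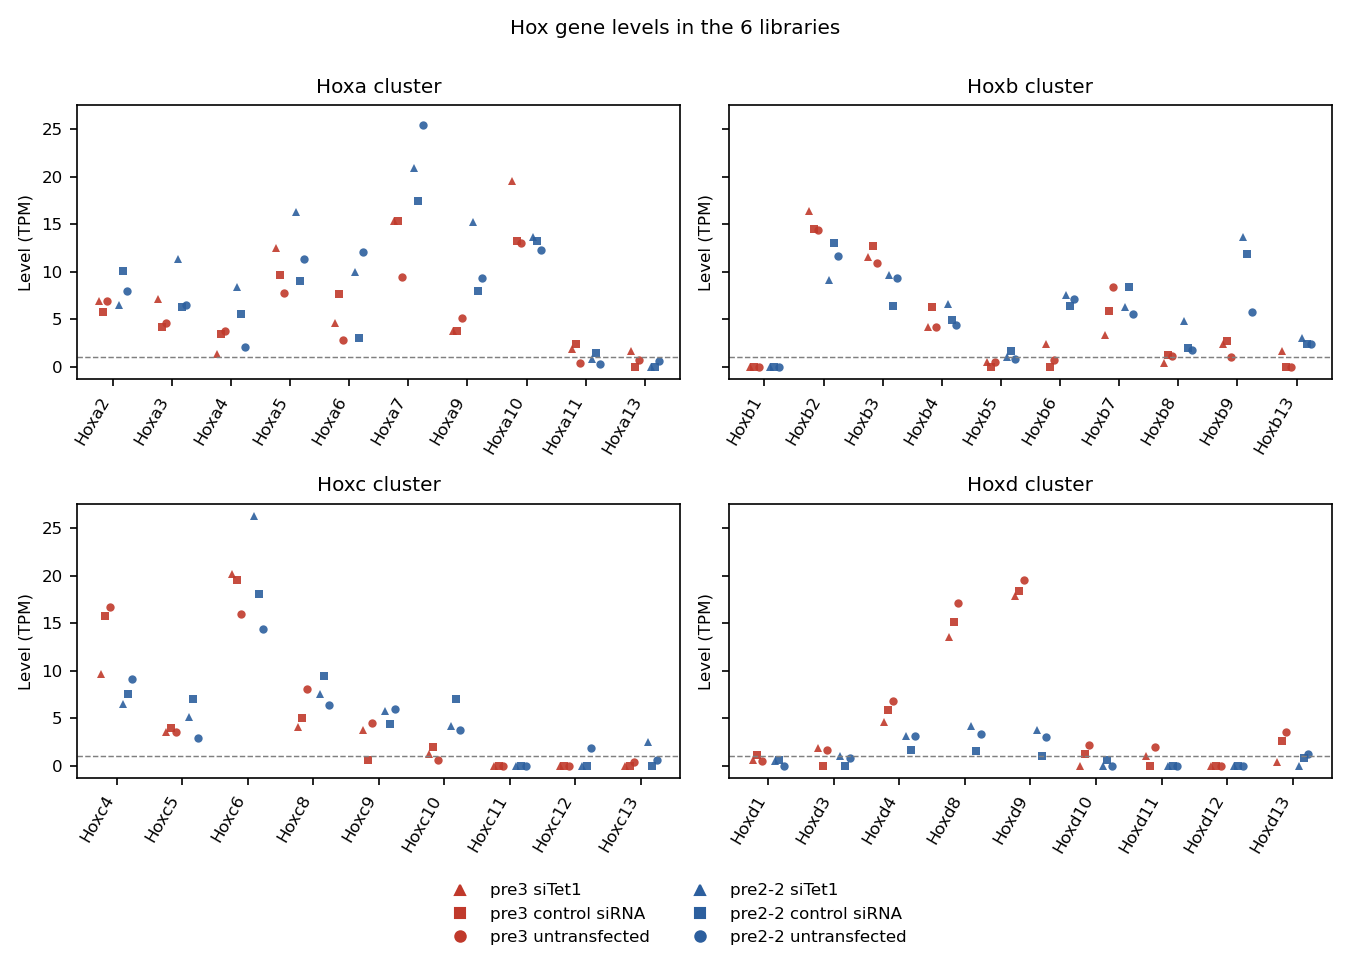
Level in TPM (y axis) of the Hox genes, ordered by paralog number within its cluster, in the 3 libraries of pre3 (red, left of each pair) and of pre2-2 (blue). Triangles are siTet1, squares control siRNA and circles untransfected libraries; the dashed line is at 1 TPM. Hoxd8 and Hoxd9 lie at 13.5 to 19.5 TPM in pre3 and at 1.01 to 4.19 TPM in pre2-2.

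By cluster, 9 of 11 Hoxa genes were expressed in each line, ending at Hoxa10. In Hoxb 5 of 10 were expressed in pre3 and 8 of 10 in pre2-2, beginning at Hoxb2 in both and ending at Hoxb9 in pre3 and Hoxb13 in pre2-2. In Hoxc, 4 of 9 were expressed in pre3, from Hoxc4 to Hoxc8, and 6 of 9 in pre2-2, up to Hoxc10. In Hoxd the same 3 of 9 passed in each line, Hoxd4, Hoxd8 and Hoxd9. By position, 5 of 8 anterior genes were expressed in either line, 12 of 15 central genes in pre3 and 14 in pre2-2, and 4 of 16 posterior genes in pre3 and 7 in pre2-2.

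Hoxb1, a gene of the hindbrain that answers to retinoic acid, had no count in any library, nor had Hoxc11 and Hoxd12. The genes of the limb tips and tail were few in counts. Hoxa13, needed for the digits, had 0 to 2 counts per library. Hoxd13, also a digit gene, had 1, 6 and 9 counts in pre3 (siTet1, control siRNA, untransfected) and 0, 2 and 4 in pre2-2. Hoxc12 was counted in 1 library alone (2 counts in untransfected pre2-2) and Hoxd11 in 2 libraries of pre3 (1 with siTet1 and 2 untransfected). Hoxa11, Hoxb5, Hoxc13, Hoxd1, Hoxd3 and Hoxd10 made up the rest of the 13 genes expressed in neither line, with at most 6 counts in a library. Counts this low leave wide intervals, and none of these genes entered the test.

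Averaged over the 6 libraries the highest members were Hoxc6, Hoxa7, Hoxa10, Hoxb2, Hoxa5, Hoxc4, Hoxd9, Hoxb3, Hoxd8 and Hoxa9 in that order, from 19.1 to 7.56 TPM. Hoxc6, which acts in the forelimb and upper trunk, was at 20.1, 19.6 and 15.9 TPM in pre3 (siTet1, control siRNA, untransfected) and at 26.2, 18.1 and 14.4 TPM in pre2-2. The lines overlapped for this gene. Hoxa10, a gene of the lower trunk and the uterus, was at 19.5, 13.2 and 13.1 TPM in pre3 and 13.7, 13.3 and 12.3 TPM in pre2-2. The siTet1 library of pre3 was above the other 5, and the lines overlapped. Hoxa5, needed for the lung and the neck-to-trunk boundary, was at 12.5, 9.72 and 7.79 TPM in pre3 and 16.3, 9.07 and 11.4 TPM in pre2-2, with the lines overlapping. Even the highest of these, Hoxc6, was at the 65.9th percentile of all listed genes by mean TPM. Neighbouring means in this order lay closer together than the range of either gene over the 6 libraries.

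The total Hox level was nearly the same in the lines. It was 205, 204 and 202 TPM in the siTet1, control siRNA and untransfected libraries of pre3, and 240, 195 and 197 TPM in those of pre2-2. The mean was 204 ± 1.52 TPM in pre3 and 211 ± 25.9 TPM in pre2-2 (SD, n = 3 libraries each), so the lines overlapped. The clusters contributed unequally. Hoxd made up 39.8, 44.3 and 53.3 TPM in the siTet1, control siRNA and untransfected libraries of pre3 but 12.6, 6.20 and 11.5 TPM in those of pre2-2. That is 19.4 to 26.4% of the Hox total in pre3 and 3.2 to 5.9% in pre2-2. Hoxa summed to 69.0 ± 11.2 TPM in pre3 and 92.3 ± 15.3 TPM in pre2-2, Hoxb to 42.6 ± 1.06 and 56.0 ± 6.49 TPM, and Hoxc to 46.3 ± 3.67 and 52.1 ± 6.43 TPM, in the same order of lines (SD, n = 3). Of these 4 sums those of Hoxb and Hoxd did not overlap between the lines. By position, anterior genes held 20.5 to 24.2% of the Hox total in pre3 and 17.9 to 20.5% in pre2-2, and posterior genes 23.0 to 26.9% in pre3 and 24.1 to 26.1% in pre2-2.

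**Figure D2:**
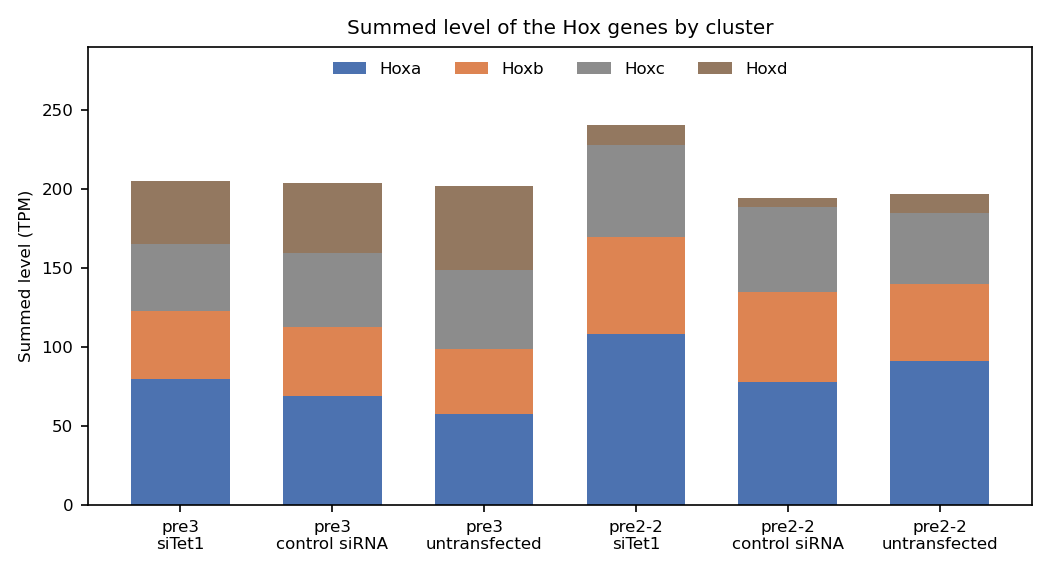
Summed level in TPM (y axis) of the Hox genes in each of the 6 libraries (x axis, pre3 left of pre2-2), stacked by cluster. The bars reach 202 to 205 TPM in pre3 and 195 to 240 TPM in pre2-2, while the Hoxd part is 39.8 to 53.3 TPM in pre3 and 6.20 to 12.6 TPM in pre2-2.

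The comparison of pre3 with pre2-2 asked which Hox genes tell the lines apart. Of the 39 genes 19 had enough counts to be tested (at least about 10 counts in 2 libraries or more). With edgeR's quasi-likelihood test 6 of the 19 were called at an adjusted p under 0.05, 4 higher and 2 lower in pre3. Over all 11048 genes tested 30.2% were called, 14.4% higher and 15.8% lower, so the number of Hox genes called was near the background. The median log2 difference was -0.04 over the 19 genes and 0.00 over all genes. Hoxd4, Hoxd8 and Hoxd9 were at 1.01 to 3.87 CPM in the pre2-2 libraries and 5.82 to 21.4 CPM in the pre3 libraries, and passed the filter only through pre3. A gene that enters the test this way had to differ, so the number of Hoxd genes called among those tested is no measure of the cluster.

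Hoxd9, a posterior gene that acts in the limbs and the lower trunk, was at 17.8, 18.4 and 19.5 TPM in pre3 (siTet1, control siRNA, untransfected) and at 3.78, 1.01 and 3.01 TPM in pre2-2. Behind these levels lay 35, 36 and 42 counts in pre3 and 8, 2 and 8 in pre2-2. Every pre3 library was above every pre2-2 library, and Hoxd9 was 2.87 higher in pre3 on the log2 scale (SE 0.36, 7.32-fold, edgeR adjusted p = 6.69e-07). Hoxd8, its neighbour in the cluster, was at 13.5, 15.1 and 17.1 TPM in pre3 and 4.19, 1.5 and 3.33 TPM in pre2-2. It was 2.39 higher in pre3 (SE 0.44, 5.22-fold, edgeR adjusted p = 0.000159), again with no overlap of the lines. Hoxd4, a gene of the hindbrain and neck, was at 4.59, 5.87 and 6.86 TPM in pre3 and 3.10, 1.66 and 3.08 TPM in pre2-2, 1.20 higher in pre3 (SE 0.44, edgeR adjusted p = 0.0399). Its libraries do not overlap, but the call ended without any one of the 6 libraries (0.97 to 1.47, adjusted p 0.057 to 0.268), with the line alone in the model (adjusted p = 0.0731) and with DESeq2 (adjusted p = 0.278). Hoxd4 also shares 42.2% of its 50-base words with Gm28230, a gene not listed in the files, so its reads may be of either; Hoxd8 and Hoxd9 share none.

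Hoxd13 and Hoxd10 also had more counts in pre3, at very low counts. Summed over the 3 libraries, Hoxd13 had 16 counts in pre3 and 6 in pre2-2, a ratio of 3.11 after scaling by library totals (95% exact counting interval 1.16 to 9.7). Hoxd10, a gene of hindlimb motor neurons, had 6 counts in pre3 and 1 in pre2-2 (ratio 6.99, 95% exact counting interval 0.849 to 322). Neither had enough counts to enter the test, and with no filter Hoxd13 stood at an edgeR adjusted p of 0.21 and Hoxd10 at 0.391. Of the genes that flank Hoxd, Evx2, next to Hoxd13, had no count in any library. Lnp, beyond it, was 0.28 higher in pre3 (SE 0.16, edgeR adjusted p = 0.179) and Mtx2, next to Hoxd1, differed by -0.09 (SE 0.14, edgeR adjusted p = 0.699). Neither was called.

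Hoxb9 and Hoxa9, paralogs of Hoxd9, differed between the lines in the opposite direction. Hoxb9, which acts in the thorax, was at 2.37, 2.78 and 1.08 TPM in pre3 (siTet1, control siRNA, untransfected) and at 13.6, 11.9 and 5.82 TPM in pre2-2, from 3 to 7 counts in pre3 and 19.92 to 37.05 in pre2-2. It was lower in pre3 (log2 difference -2.23, SE 0.39, 0.213-fold, edgeR adjusted p = 7.88e-05), and the lines did not overlap. Hoxb9 passed the filter only through pre2-2, at 7.74 to 17.25 CPM there and 1.53 to 3.71 CPM in pre3. Entry this way favoured a difference, so its call is no independent support for one. Hoxa9, a gene of blood progenitors and the lumbar region, was at 3.76, 3.78 and 5.15 TPM in pre3 and 15.3, 7.96 and 9.38 TPM in pre2-2. Its log2 difference was -1.24 (SE 0.36, 0.424-fold, edgeR adjusted p = 0.0101), with no overlap. With 8, 8 and 12 counts in pre3 and 35, 17 and 27 in pre2-2, Hoxa9 too passed the filter only through pre2-2. That entry also favoured a difference, so this call is no independent support for one. The call of Hoxa9 ended without the siTet1 library of pre3 (-0.87, adjusted p = 0.176) or of pre2-2 (-0.87, adjusted p = 0.215) and with DESeq2 (adjusted p = 0.146). Hoxc9, the remaining paralog, was at 3.73, 0.625 and 4.54 TPM in pre3 and 5.78, 4.33 and 5.97 TPM in pre2-2, overlapping, with too few counts to be tested. Within paralog group 9 Hoxd9 was thus the highest in all 3 pre3 libraries, and Hoxa9 or Hoxb9 in all 3 pre2-2 libraries.

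Hoxc4, at the low-numbered end of its cluster, was at 9.70, 15.7 and 16.7 TPM in pre3 and 6.51, 7.51 and 9.16 TPM in pre2-2, 0.93 higher in pre3 (SE 0.30, edgeR adjusted p = 0.0189). The lines did not overlap, but the lowest pre3 value (siTet1) was close to the highest of pre2-2. Its call ended without the control siRNA library of pre3 (0.85, adjusted p = 0.144) or of pre2-2 (0.83, adjusted p = 0.138), without the untransfected library of pre3 (0.92, adjusted p = 0.0554), with the line alone in the model (adjusted p = 0.0711) and with DESeq2 (adjusted p = 0.238). In all 9 of the 19 tested genes had TPM values that did not overlap between the lines, 6 higher in pre3 and 3 lower. Over all genes tested these shares were 14.5% higher and 22.2% lower. Hoxd4, Hoxd8 and Hoxd9 among the 6 and Hoxa9 and Hoxb9 among the 3 passed the filter only through the line where they were higher. Such entry favours values that do not overlap, so this number is no measure of the Hox genes. Hoxb2, a hindbrain gene among the 6, was at 16.4, 14.5 and 14.4 TPM in pre3 and 9.15, 13.1 and 11.6 TPM in pre2-2, and was not called (log2 difference 0.50, edgeR adjusted p = 0.218). Hoxb3, also of the hindbrain and among the 6, was at 11.6, 12.7 and 10.9 TPM in pre3 and 9.66, 6.42 and 9.31 TPM in pre2-2, and was not called (0.54, adjusted p = 0.0889). They share 57.3% and 62.2% of their words with the unlisted antisense gene Hoxb3os. Whether counting used strand is not given in the sources used here, so reads of the pair cannot be told apart. Hoxa7, a central gene, had the third such lower range in pre3, at 15.3, 15.4 and 9.50 TPM in pre3 and 20.9, 17.5 and 25.5 TPM in pre2-2 (log2 difference -0.61, SE 0.25, edgeR adjusted p = 0.0684), and shares 27.0% of its words with the antisense gene Hoxaas3.

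**Figure D3:**
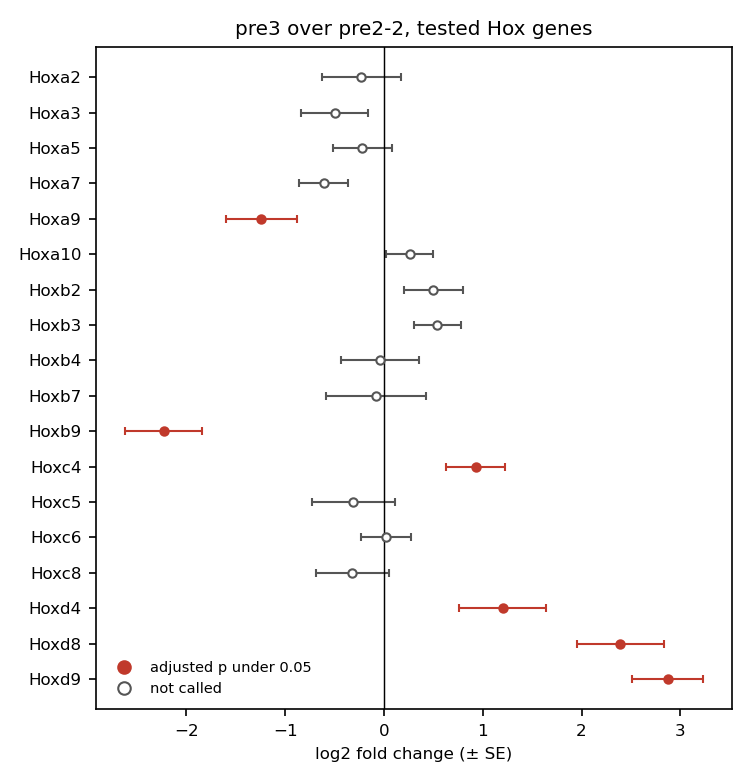
Log2 fold change of pre3 over pre2-2 (x axis) with its SE for tested Hox genes, in cluster order; filled red points have an edgeR adjusted p under 0.05. Hoxd4, Hoxd8, Hoxd9 and Hoxc4 lie right of 0 and Hoxa9 and Hoxb9 left of it.

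Among the genes too low to test, several high-numbered Hoxb and Hoxc genes had fewer counts in pre3. Hoxb6, which lies between Hoxb5 and Hoxb7 in the thoracic part of the cluster, had 3, 0 and 1 counts in pre3 (siTet1, control siRNA, untransfected) and 10, 8 and 12 in pre2-2. With no filter on low counts it was called, with a log2 difference of -2.59 (SE 0.79, edgeR adjusted p = 0.00722). Hoxc10, a hindlimb-level gene, had 2, 3 and 1 counts in pre3 and 7, 11 and 8 in pre2-2 (ratio 0.269, 95% exact counting interval 0.0905 to 0.668). Its levels were 1.28, 1.93 and 0.585 TPM in pre3 and 4.17, 7.02 and 3.79 TPM in pre2-2, with no overlap, and it shares 6.4% of its words with Hoxc5. Hoxb8 had 1, 3 and 3 counts in pre3 and 13, 5 and 6 in pre2-2. Hoxb13, the last gene of its cluster, was at 1.63, 0 and 0 TPM in pre3 and 3.03, 2.44 and 2.41 TPM in pre2-2, from 2 counts in all in pre3 and 11 in pre2-2 (ratio 0.212, 95% exact counting interval 0.0228 to 0.971). With no filter Hoxc10, Hoxb8 and Hoxb13 stood at adjusted p values of 0.0602, 0.162 and 0.285 in edgeR. Hoxa4 and Hoxa6, central genes expressed in both lines but also too low to test, overlapped between them, Hoxa4 at 1.40 to 3.83 TPM in pre3 and 2.07 to 8.46 TPM in pre2-2, and Hoxa6 at 2.81 to 7.73 TPM in pre3 and 3.06 to 12.1 TPM in pre2-2. Summed, the posterior genes of Hoxb were at 4.0, 2.78 and 1.08 TPM in pre3 and 16.7, 14.3 and 8.23 TPM in pre2-2, and those of Hoxc at 5.01, 2.56 and 5.52 TPM in pre3 and 12.4, 11.4 and 12.3 TPM in pre2-2. Those of Hoxd ran the other way, at 19.3, 22.2 and 27.2 TPM in pre3 and 3.78, 2.47 and 4.28 TPM in pre2-2.

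Other tested members gave no call between the lines, with intervals that bound the difference. For Hoxc6 the log2 difference was 0.02 (95% interval -0.49 to 0.53), for Hoxa10 0.26 (-0.22 to 0.75) and for Hoxa5 -0.22 (-0.84 to 0.40). Hoxa2, the gene of the second pharyngeal arch, stood at -0.23 (-1.05 to 0.59), Hoxa3 at -0.50 (-1.20 to 0.19), Hoxb4 at -0.04 (-0.84 to 0.76) and Hoxb7 at -0.08 (-1.12 to 0.96). Hoxc5 (-0.31, -1.17 to 0.54) and Hoxc8 (-0.32, -1.08 to 0.43), genes of the neck and thorax levels, were not called either. Hoxc8, the last Hoxc gene expressed in pre3, was at 4.11, 4.98 and 8.03 TPM in pre3 and 7.55, 9.43 and 6.39 TPM in pre2-2, with the lines overlapping.

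The fibroblast markers differed more between the lines than the Hox total did, as sums; the difference of the ratios was not tested. The 22 markers, among them the collagen genes Col1a1 and Col1a2 and the receptor gene Pdgfra, summed to 3417, 3083 and 2846 TPM in the siTet1, control siRNA and untransfected libraries of pre3 and to 7536, 6912 and 4127 TPM in those of pre2-2. Of 19 tested 16 were lower in pre3 and none higher (median log2 difference -1.44). Over all genes tested 15.8% were lower and 14.4% higher. Of the 19, Twist1, Snai2 and Dcn passed the filter only through pre2-2, which favoured a difference. The ratio of the line means, pre3 over pre2-2, was 0.503 for the markers and 0.967 for the Hox total. In these bulk samples fewer cells of a type and less RNA per cell cannot be told apart. Of the 22 markers 18 were expressed in pre3 and 20 in pre2-2, with Tcf21 at 0 throughout. Neural markers were also lower in pre3 as a sum, 79.0 to 98.2 TPM against 180 to 249 TPM in pre2-2 (2 of 6 tested higher, 4 lower; Olig2 at 0). Endothelial and blood markers summed to 25 to 26.5 TPM in pre3 and 54.4 to 64.3 TPM in pre2-2 (5 of 6 lower), and mesoderm markers to 10.2 to 12.4 and 11.6 to 23.6 TPM (2 of 3 lower; T, Mixl1, Hand1 and Pax2 at 0). Pluripotency markers summed to 9876 to 10987 TPM in pre3 and 2801 to 3587 TPM in pre2-2, of which Pou5f1 made up 8677 to 9358 and 1630 to 1826 TPM (3 of 8 tested higher, 4 lower; Dppa3 at 0). The part of these cells or states in the Hox differences was not tested.

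**Figure D4:**
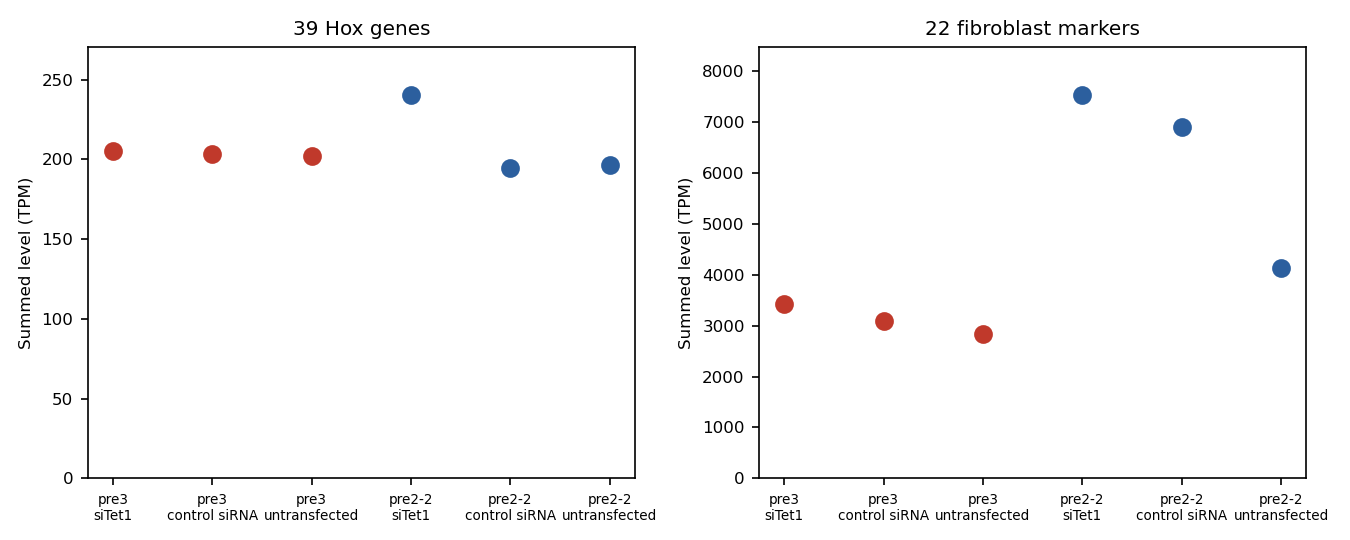
Summed level in TPM (y axes, each from 0) of the 39 Hox genes (left panel) and of the 22 fibroblast markers (right panel) in the 6 libraries, pre3 in red and pre2-2 in blue. The Hox total spans 195 to 240 TPM over all libraries, while the marker sum is 2846 to 3417 TPM in pre3 and 4127 to 7536 TPM in pre2-2.

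Genes that work with or on Hox proteins differed between the lines in part. Of the 8 tested cofactors, which are TALE homeodomain partners that bind DNA beside Hox proteins, 5 were lower in pre3 and none higher (median -0.55), among them Meis2 (log2 difference -0.55, SE 0.16, edgeR adjusted p = 0.0101). Over all genes tested 15.8% were lower and 14.4% higher. The cofactor genes Pbx4 and Meis3 passed the filter only through pre2-2, which favoured a lower value in pre3. Of 24 chromatin regulators of the clusters 3 were higher and 3 lower, with a median of 0.00. The Polycomb gene Cbx7 was 0.86 higher in pre3 (SE 0.24, edgeR adjusted p = 0.00785) and the Polycomb cofactor gene Jarid2 lower (-0.63, SE 0.12, adjusted p = 0.000146), whereas Ezh2, the Polycomb methyltransferase gene, stood at 0.02 (SE 0.11, adjusted p = 0.914). Of 3 retinoic acid response genes tested 1 was higher and 1 lower. Crabp2, which carries retinoic acid to the nucleus, was 1.94 higher in pre3 (SE 0.12, edgeR adjusted p = 7.63e-12). Cyp26a1, the retinoic acid-degrading enzyme gene, was at 0.00 to 1.80 TPM throughout and was not tested. Among other homeobox and T-box genes of limb, face and trunk mesenchyme 5 of 11 tested were higher in pre3 and 3 lower. Barx1, a gene of the face and stomach, was at 25.9, 32.4 and 36.6 TPM in pre3 and 0.73, 0.78 and 1.16 TPM in pre2-2 (log2 difference 5.08, SE 0.44, edgeR adjusted p = 1.9e-09). With 1 to 2 counts per pre2-2 library, Barx1 passed the filter only through pre3, which favoured a difference. Prrx2, a limb and face mesenchyme gene, was the most lowered of that list (-2.22, SE 0.38, edgeR adjusted p = 5.85e-05). With 12, 3 and 8 counts in pre3 and 56, 52 and 18 in pre2-2, Prrx2 passed the filter only through pre2-2. That entry favoured a difference as well. Of 11 genes that flank the clusters 3 were higher, Hibadh by 0.64, Atf2 by 0.40 and Skap2 by 0.34. The 18 noncoding transcripts and microRNAs of the clusters were not among the listed genes under the symbols looked up.

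The comparison of siTet1 with control siRNA asked whether Hox genes change when Tet1 is reduced. None of the 19 tested genes was called with edgeR, against 1.58% of all genes tested (1.15% higher and 0.434% lower). Without adjustment 0 of the 19 had an edgeR p under 0.05, against 1195 of all 11048 genes tested, and DESeq2 and limma-voom also called 0. The median log2 difference was 0.12 (0.00 over all genes), with 12 genes above 0 and 7 below. Hoxa3, a gene of the third pharyngeal arch, had the highest, at 7.14 TPM with siTet1 and 4.22 TPM with control siRNA in pre3, and 11.3 and 6.28 TPM in pre2-2 (0.80, SE 0.41, edgeR adjusted p = 0.49). Hoxa5 stood at 0.61 (SE 0.37, adjusted p = 0.594) and Hoxa9 at 0.65 (SE 0.44, adjusted p = 0.649). The direction of Hoxa9 turned without the siTet1 library of pre2-2 (-0.08), and it stood at 0.97 without that of pre3. Hoxc4 was at 9.70 TPM with siTet1 and 15.7 with control siRNA in pre3, and at 6.51 and 7.51 TPM in pre2-2 (-0.50, SE 0.38, edgeR adjusted p = 0.709). Of the Hoxa genes tested 6 of 7, all measured in the same libraries, had a positive difference, with a median of 0.52. In pre3 Hoxa summed to 80.0 TPM with siTet1, 69.2 TPM with control siRNA and 57.66 TPM untransfected. In pre2-2 the sums were 108, 77.7 and 91.05 TPM, so there the control siRNA library was the lowest. The genes with the widest line differences were not called either: Hoxd9 stood at 0.25 (95% interval -0.59 to 1.09), Hoxd8 at 0.17 (-0.91 to 1.26) and Hoxb9 at 0.09 (-0.75 to 0.94). These values rest on single libraries. Without the control siRNA library of pre3 Hoxd9 stood at 1.64 and Hoxd8 at 1.16, without the siTet1 library of pre3 at 0.98 and 0.92, without the control siRNA library of pre2-2 at 0.01 and -0.05, and without the siTet1 library of pre2-2 at 0.07 and -0.06. Hoxb9 stood at -0.14 without the siTet1 library of pre2-2 and -0.19 without its control siRNA library. None of these was called. The median SE was 0.41 for Hox genes and 0.20 for all genes.

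The comparison of control siRNA with untransfected cells gave the background of transfection, and siTet1 with untransfected cells that of both together; the comparisons share libraries. Again no Hox gene was called, against 1.48% of all genes tested for control siRNA (1.38% higher, 0.0996% lower) and 6.55% for siTet1 (4.92% higher, 1.63% lower), and DESeq2 and limma-voom called 0. In each a single Hox gene, Hoxb9, had an unadjusted edgeR p under 0.05. Over all 11048 genes tested 1017 had such a p for control siRNA and 2158 for siTet1, so Hoxb9 does not stand out by this measure. Hoxb9 was at 2.37 TPM with siTet1, 2.78 with control siRNA and 1.08 untransfected in pre3, and at 13.6, 11.9 and 5.82 TPM in pre2-2. Its log2 difference was 1.12 for siTet1 (SE 0.44, edgeR adjusted p = 0.145) and 1.03 for control siRNA (SE 0.45, adjusted p = 0.463), both over untransfected cells. In both lines the untransfected library was the lowest. Medians over the 19 genes were -0.01 for siTet1 and -0.08 for control siRNA.

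Part of the fibroblast markers were higher in transfected cells. Of 19 tested 12 were higher with siTet1 than in untransfected cells and 6 higher with control siRNA, none lower in either. Their sum with control siRNA was 1.08 times that of untransfected cells in pre3 and 1.68 times in pre2-2, while the Hox total stood at 1.01 times in pre3 and 0.989 times in pre2-2. Not every marker had that direction: in pre3 Fn1, a fibronectin gene, was at 694 TPM with control siRNA and 735 TPM untransfected. Of 8 pluripotency markers tested 3 were higher with siTet1 than with control siRNA and 3 than in untransfected cells. They were Dppa5a, 1.63 higher than with control siRNA (SE 0.20, edgeR adjusted p = 1.94e-05), Cdh1, 1.04 higher (SE 0.14, adjusted p = 0.000134), and Tdgf1, 0.72 higher (SE 0.11, adjusted p = 0.000546). With siTet1 against untransfected cells 1 of 6 neural markers (Nes, 0.75) was higher, and of 6 endothelial and blood markers 1 was higher (Kdr, 1.62) and 1 lower (Pecam1, -1.18). The part of these markers in the Hox values was not tested. Pdgfra, a receptor gene of mesenchymal cells, was 1.92 higher with siTet1 than in untransfected cells (SE 0.32, edgeR adjusted p = 0.000483) and Lox, the collagen cross-linking enzyme gene, 1.11 higher (SE 0.22, adjusted p = 0.0022). Prrx1 (1.03, SE 0.20, edgeR adjusted p = 0.00176) and Prrx2 (1.56, SE 0.44, adjusted p = 0.033), homeobox genes of mesenchyme outside the clusters, were higher too. Evx1, the homeobox gene just beyond Hoxa13, was at 7.42 TPM with siTet1, 2.24 with control siRNA and 1.69 untransfected in pre3, and at 11.7, 3.70 and 4.66 TPM in pre2-2. It was 1.51 higher with siTet1 than in untransfected cells (SE 0.43, edgeR adjusted p = 0.0307) and stood at 1.68 against control siRNA (SE 0.45, adjusted p = 0.0639). Of the Hox cofactors Meis2 alone was called, 0.77 higher with siTet1 than in untransfected cells (SE 0.19, edgeR adjusted p = 0.015), and of the 24 chromatin regulators none was called in any treatment comparison.

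**Figure D5:**
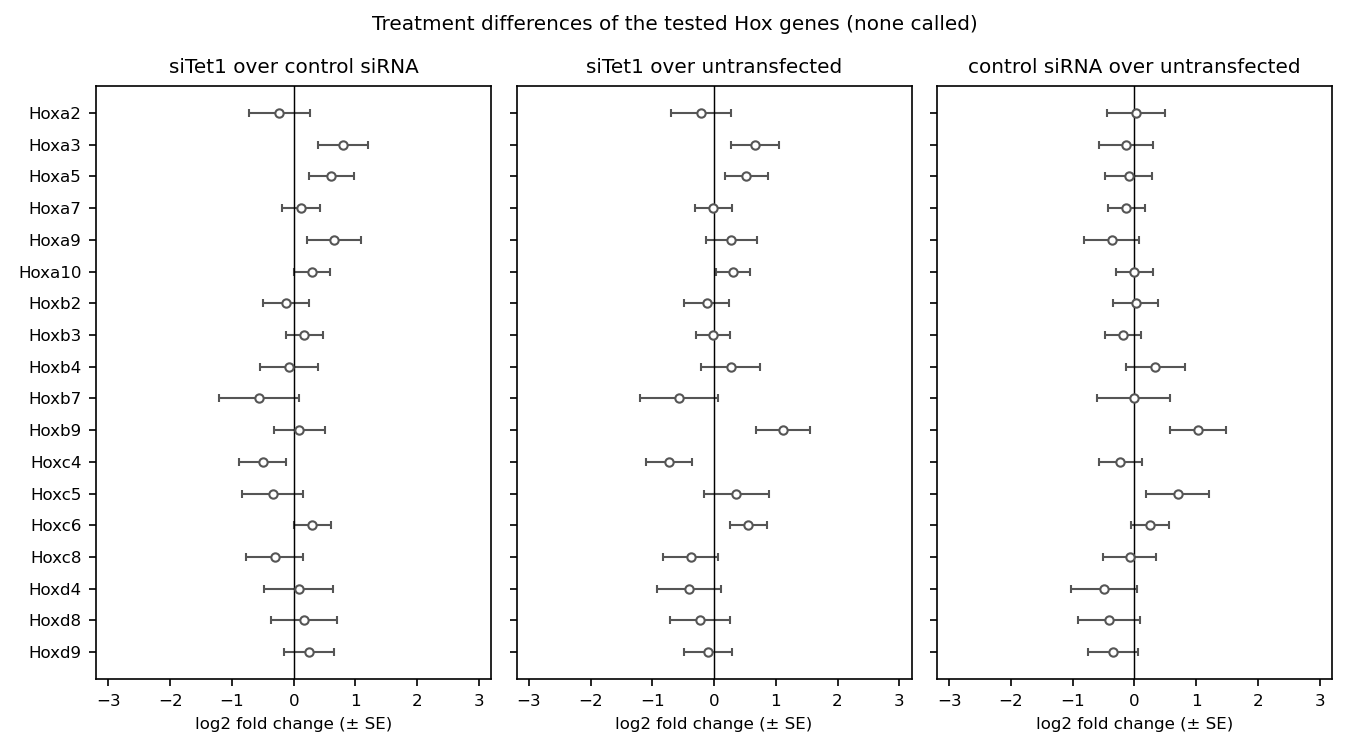
Log2 fold change (x axis) with its SE for tested Hox genes under siTet1 over control siRNA, siTet1 over untransfected and control siRNA over untransfected cells, in cluster order. No gene shown has an edgeR adjusted p under 0.05; Hoxb9 lies at 1.12 and 1.03 in the panels set against untransfected cells.

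Whether the treatments acted differently on Hox genes in the 2 lines was tested with an interaction term. For siTet1 against the other libraries of a line no Hox gene was called (edgeR, 0 of 19, with 0 at an unadjusted p under 0.05). Over all 11048 genes tested 270 had such a p and the share called was 0%. For transfected against untransfected libraries none was called either, against 0.00905% of all genes. Hoxa7 alone of the 19 had an unadjusted edgeR p under 0.05, against 603 of all 11048 genes tested. DESeq2 and limma-voom called 0 Hox genes in both. Hoxa7 was at 15.3 TPM with siTet1, 15.4 with control siRNA and 9.50 untransfected in pre3, and at 20.9, 17.5 and 25.5 TPM in pre2-2. Its interaction was 1.07 on the log2 scale (SE 0.47, edgeR adjusted p = 0.884), and the untransfected library was the lowest of its line in pre3 and the highest in pre2-2. With 1 library per line and treatment, the total Hox level with siTet1 was 1.01 times that with control siRNA in pre3 and 1.24 times in pre2-2, a difference for which there is no replicate check.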

How the data were processed

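Per the submitters' processing notes, RSEM 1.1.21 and mm9 were used; read mapping settings and filters are not given in the sources used here. The deposited expected counts are RSEM's estimates of reads per gene, not normalized. The deposited fraction gives each gene's part of all transcripts in its library, rescaled here to TPM. Rounding to whole numbers preceded the edgeR 4.0.16 quasi-likelihood test (R 4.3.3), two-sided, on all 6 libraries, with line and treatment in the model, TMM scaling, and a low-count filter by treatment (minimum count 10). Adjustment was Benjamini-Hochberg over 11048 genes, with calls under 0.05. Each SE was derived from the log2 fold change and its F statistic. The interaction models took the 2 other libraries of a line, or its 2 transfected ones, as replicates of each other. The same steps were tested on simulated data.

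Replicate numbers mark the line, so the libraries of a line are paired: their deviations from treatment means correlated at 0.667 to 0.772. Alternatives were RLE factors, library totals, no filter, DESeq2 1.42.0, limma 3.58.1 (voom, and log2(TPM + 1)), other models and leaving out each library. Every Hox gene entered the counts and sums, but the values of some genes are not reported here. The members given one by one were the called ones, the 10 highest and the last expressed of each cluster. From other lists, up to 5 called genes per list and comparison could be named, and any gene beyond these rules was chosen after its values were seen. Members and gene lists were chosen with earlier results of these data known. Shared 50-base words were counted in GENCODE M21 transcripts on both strands. The labels differ on times: RNA at 48 h from transfection with 36 h of vitamin C in the sample labels, vitamin C at 16 h and RNA 32 h later in the series description. They also name the siRNA Tet in the treatment field and Tet1 in titles. A separate deposited TPM table (6 columns) was not used, since it repeats the fractions and 1 column name matches no sample.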

Additional observations from a re-analysis of the deposited data

How the results depend on the processing

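In the 3 treatment comparisons and both interactions 0 Hox genes were called under every alternative that was run. With no replicate block (treatment alone in the model, unpaired) 0 Hox genes were called, but so were 0% of all genes in each of the 3 treatment comparisons, so that fit says nothing of Hox genes. With the replicate block on only the 4 libraries compared 0 Hox genes were called, against 5.65% of all genes for siTet1 over control siRNA, 1.98% for control siRNA over untransfected and 5.51% for siTet1 over untransfected cells. The interactions could not be fitted without the sole siTet1 library of a line (siTet1) or its sole untransfected library (transfection). For the lines, 6 of 19 Hox genes were called. DESeq2 called 3 (Hoxb9, Hoxd8 and Hoxd9), against 12.9% of all genes. With no filter 8 of 36 were called (Hoxa7 and Hoxb6 added), against 22.5% of 15763 genes. With the line alone in the model 4 were called, against 18.7% of all genes, and with a library left out 4 to 5, against 18.7 to 31.7%. At a log2 change of at least 1 the number was 5, and the share over all genes at that setting was not computed. Hoxb9 (-2.37 to -1.86), Hoxd8 (2.08 to 2.74) and Hoxd9 (2.53 to 3.22) kept their calls under all 13 alternatives for which each was refitted. In the main fit each of these genes, and also Hoxa9 and Hoxd4, passed the filter only through the line where it was higher. Hoxa9 lost its call under 3, Hoxc4 under 5 and Hoxd4 under 8, with no change of sign in the line comparison; the cause was not tested. At 10 expected counts in each library, a threshold not scaled for depth, 12 Hox genes were expressed in pre3 and 14 in pre2-2, against 21 and 26 at 1 TPM. Depth limits the low genes: 19 of the 39 members could be tested.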
